A study of Mus musculus with 15 samples.

Results

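The regions described are the 2705 of 43020 accessible regions of the deposited table that lie on mouse chromosome 5, chosen by position alone (mm9, first start 3151967, last end 152507149). The other 18 autosomes hold 39281 regions and serve as the background. The chromosome itself was singled out because the median signal of its regions had been seen to vary from line to line in these data, so the medians, profiles and counts over the whole chromosome are descriptions, with no test. Accessibility was measured by ATAC-seq in 15 organoid lines of mouse colon cancer of the genotype labelled AKP, whose recipient mice were C57Bl6. Each of 5 groups holds 3 lines. Met1, Met2 and Met3 were grown from metastases in the liver after rounds 1, 2 and 3 of transplantation. Primary2 and Primary3 came from the primary tumours of the 2 later rounds. Lines from metastases and from primary tumours were put back into the colons of immunocompetent mice in each round, and all 5 groups share the genotype. The alleles behind the label AKP, and which line descended from which, are not given in the sources used here, and first-round primary lines were not analysed here. The regions are not paired with genes in the table, so they are given by the authors' region names and mm9 coordinates, and the cell type of the lines was not checked against marker genes.

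In ATAC-seq a transposase cuts open DNA and inserts sequencing adapters, so a region gains reads when more of its copies are open. It also gains reads when a cell carries more copies of that stretch of DNA, and cancer cells often gain or lose whole chromosomes or arms. From reads alone, the number of copies of a segment and the openness per copy cannot be told apart, and no measure of copy number was analysed here.

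The libraries held 285633 to 5916109 counts in regions, and chromosome 5 took 5.42% to 10.4% of them. Of its 2705 regions, 2531 had enough counts to be tested. Chromosome 5 regions were 200 to 4443 bp wide with a median of 751 bp, beside 749 bp on the other autosomes. Their median mean signal was 4.12 on the log2 CPM scale (counts scaled to a common library size), beside 3.99, and a typical gap between neighbours was 15538 bp, beside 15844 bp. In these properties the regions of chromosome 5 were close to those elsewhere. The shallowest library, Primary3 replicate 2, had 0 counts at 632 chromosome 5 regions, and a 0 there allows up to 9.56 CPM, so its single regions carry little weight.

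The signal of the whole chromosome differed from line to line more than that of any other autosome. Each line's value starts from log2 CPM at each tested region, less the average of all 15 lines there. It is the median of these over chromosome 5, relative to the line's median over all regions. Met2 replicate 1 stood highest at 0.62, which is 1.53 times the mean level of the 15 lines. Met3 replicate 1 (0.31), Primary2 replicate 1 (0.24), Met2 replicate 3 (0.19) and Met3 replicate 3 (0.12) were also above 0. Primary2 replicate 3 stood lowest at -0.28, or 0.825 times the mean level. The other 9 lines lay between -0.20 and -0.03. High and low lines were thus found in both kinds of origin.

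The spread on chromosome 5 lay within 3 of the 5 groups. The Met1 lines (-0.14, -0.19 and -0.20) and the Primary3 lines (-0.12, -0.12 and -0.07) were close together, with SDs of 0.03 and 0.03. The Met2 lines stood at 0.62, -0.15 and 0.19 (mean 0.22 ± 0.38 SD, n = 3). The Met3 lines stood at 0.31, -0.15 and 0.12 (0.09 ± 0.23). The Primary2 lines stood at 0.24, -0.03 and -0.28 (-0.02 ± 0.26). In Met2, Met3 and Primary2 the SD among lines was higher on chromosome 5 than on each of the other 18 autosomes, whereas 11 of these were more variable in Met1 and 14 in Primary3. Over all 15 lines the SD was 0.244 on chromosome 5 and 0.053 to 0.217 elsewhere, with a median of 0.098. The range over lines was 0.894, beside 0.671 on chromosome 15, the widest of the others.

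**Figure D1:**
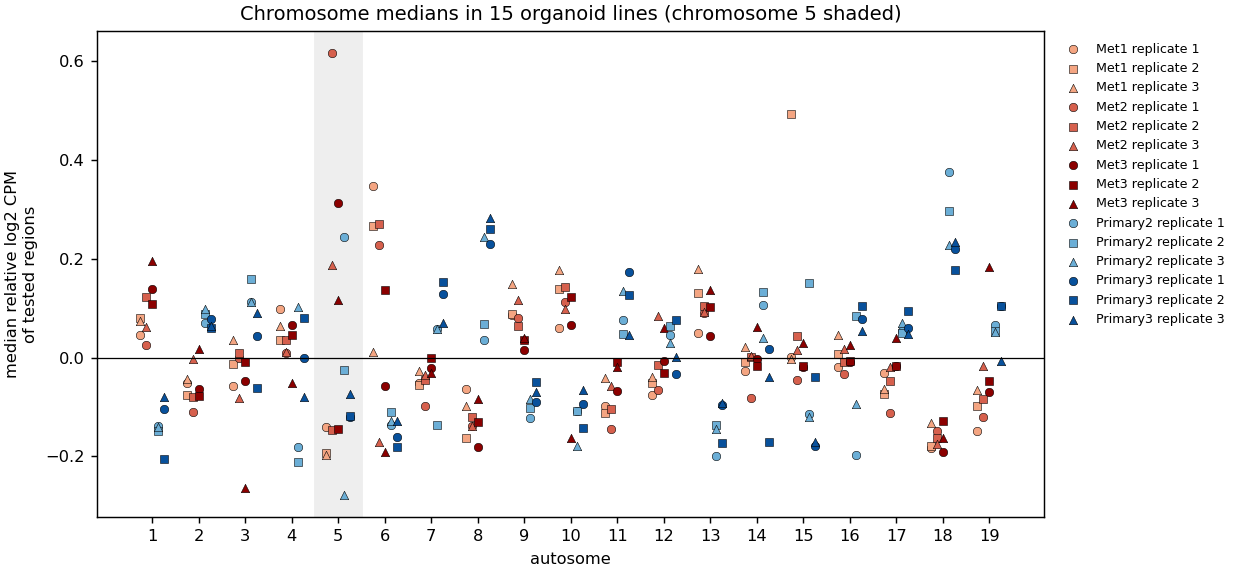
Median relative log2 CPM of tested regions (y axis, log2 scale) for each autosome (x axis) in each of the 15 organoid lines, with 1 point per line, colour for the group and marker shape for the replicate number. On chromosome 5, shaded, the lines spread from -0.28 (Primary2 replicate 3) to 0.62 (Met2 replicate 1). Metastasis lines are found from -0.20 upward, and primary lines up to 0.24.

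Metastasis and primary lines of rounds 2 and 3 overlapped on the chromosome as a whole. Their means were 0.16 ± 0.29 and -0.06 ± 0.17 (SD, n = 6 each), a difference of 0.22 averaged over both rounds. The differences on the other autosomes ran from -0.42 (chromosome 18) to 0.24 (chromosome 1), and 4 of the 18 were larger in size. Without Met2 replicate 1 the difference was 0.12, and without Met2 replicate 2 it was 0.31. It is smaller than the SD among the metastasis lines.

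The shift reached most regions of the chromosome and not a few strong sites. In Met2 replicate 1, 80.3% of tested chromosome 5 regions lay above the mean of the 15 lines, beside 47.9% of regions on the other autosomes. This line was the highest of all 15 at 35.1% of chromosome 5 regions and at 10.3% of regions elsewhere. In Met3 replicate 1, 69.4% of chromosome 5 regions lay above the mean (48.7% elsewhere), and in Primary2 replicate 1, 68.9% did (48.7% elsewhere). In Primary2 replicate 3 the share above the mean was 32.2%, beside 51.3% elsewhere, and it was the lowest line at 13.1% of chromosome 5 regions, beside 6.17%. Strong and weak regions moved alike in these lines. Taking regions with mean signal at or above the median of all tested regions as strong, chromosome 5 exceeded the other autosomes by 0.70 at strong and 0.56 at weak regions in Met2 replicate 1. The same differences were 0.34 and 0.32 in Met3 replicate 1 and -0.31 and -0.28 in Primary2 replicate 3. Met1 replicate 1 differed between the classes, at -0.45 for strong and 0.39 for weak chromosome 5 regions, and its other autosomes did so as well (-0.27 and 0.42). Primary3 replicate 1 also differed, at 0.01 for strong and -0.46 for weak regions (0.12 and -0.20 on its other autosomes). The total of Met1 replicate 1, 790233 counts, is the second lowest.

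Along the chromosome the values were taken as medians in 16 consecutive windows of 10 Mb, numbered from the start of the sequence. Met2 replicate 1 was above 0 in all 16 windows, from 0.40 in window 7 to 0.97 in window 2, and it was the highest of the 15 lines in each of them. Met3 replicate 1 was above 0 in 15 windows, with 0.50 in window 5 and -0.03 in window 16. Primary2 replicate 1 was above 0 in 15 windows and below it only in window 2 (-0.24). Primary2 replicate 3 was below 0 in all 16 windows, from -0.69 in window 2 to -0.17 in window 7, and lowest of the 15 lines in 9. In these 4 lines the offset ran over the length of the chromosome. Neighbouring windows of a line come from the same library, so a count of windows is no count of replicates.

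A threshold of 0.2 on either side describes the same offsets by window. The chromosome was chosen for its spread among lines, and the windows of a line share its level, so these shares are no test. In Met2 replicate 1, 100% of the chromosome 5 windows were above 0.2, beside 14.4% of the 236 windows of the other autosomes. The shares were 87.5% and 7.63% in Met3 replicate 1, and 50% and 5.93% in Primary2 replicate 1. Windows below -0.2 made up 81.2% of chromosome 5 and 16.5% of the other autosomes in Primary2 replicate 3. Among the Met1 lines none of the chromosome 5 windows was above 0.2, and 25% to 50% were below -0.2. On their other autosomes 9.75% to 15.3% of windows were above 0.2, and 5.93% to 8.47% were below -0.2.

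Met2 replicate 3 had a profile of its own, low in the first windows and high in the rest. Its windows 1 to 5 stood at -0.13, 0.29, 0.00, -0.10 and -0.08. Windows 6 to 16 were all above 0, from 0.08 in window 6 to 0.40 in window 13. Window 2 is the exception to this order, and it was above 0 in all 6 metastasis lines of rounds 2 and 3. The chromosome was divided midway between the start of the sequence and the end of its last region. The distal part exceeded the proximal part by 0.25 in Met2 replicate 3 and by -0.09 to 0.03 in the other 14 lines. On the other 18 autosomes of Met2 replicate 3 the same difference ran from -0.19 to 0.15.

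**Figure D2:**
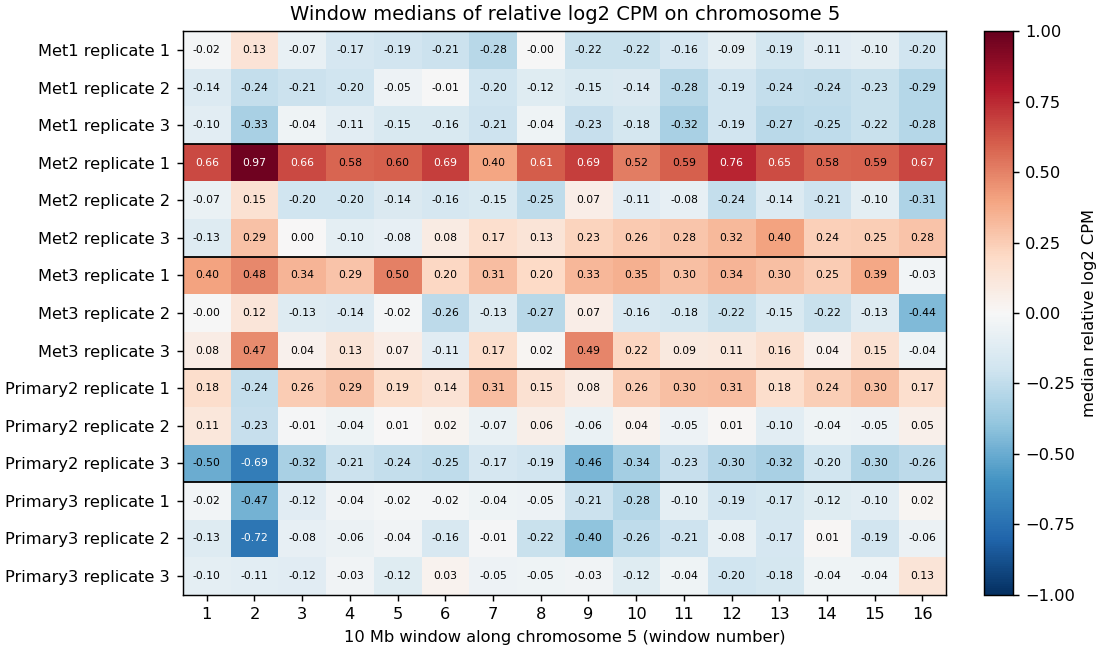
Median relative log2 CPM (colour and printed value, log2 scale) of tested chromosome 5 regions in 16 consecutive windows of 10 Mb (x axis, window number) for each of the 15 lines (y axis, by group). Met2 replicate 1 is above 0 in every window, Primary2 replicate 3 is below 0 in every window, and Met2 replicate 3 turns from values near 0 to 0.40 in window 13.

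By group, the profiles of Met2, Met3 and Primary2 were wide because their lines stood at different heights. The SD among lines was 0.28 to 0.50 over the windows in Met2, and 0.11 or less in Met1 outside window 2. In Primary3 it was 0.10 or less outside windows 2 (0.31) and 9 (0.19). Over strong regions alone the Met1 SD reached 0.38 in window 5 and 0.36 in window 9. Met1 replicate 1 was low at strong regions of its other autosomes as well (-0.27). All other values here are over all tested regions. The Met1 mean lay below 0 in all 16 windows, from -0.26 in window 11 to -0.05 in window 8. The Met2 mean lay above 0 in all 16 windows, from 0.09 ± 0.43 in window 4 to 0.47 ± 0.44 in window 2 (SD, n = 3). The Met3 mean was highest in window 2 (0.36 ± 0.20) and window 9 (0.30 ± 0.21), and lowest in window 16 (-0.17 ± 0.23). Both primary groups were lowest in window 2, with -0.39 ± 0.26 in Primary2 and -0.43 ± 0.31 in Primary3. Away from that window the Primary2 mean stayed between -0.15 and 0.02.

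**Figure D3:**
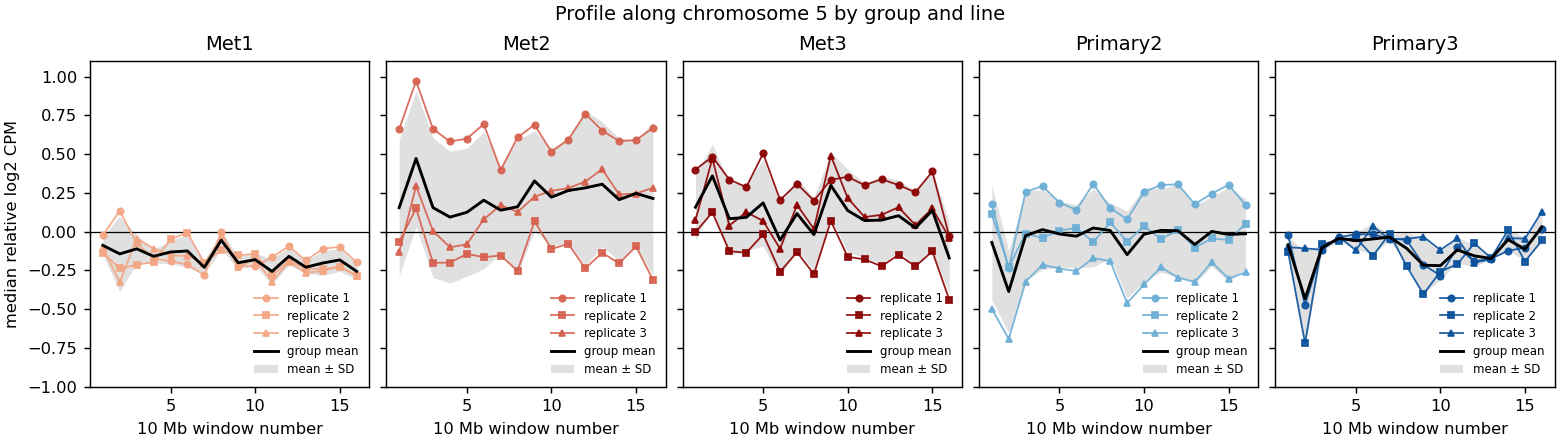
Median relative log2 CPM (y axis, log2 scale) along chromosome 5 in windows of 10 Mb (x axis, window number), with a panel for each group. Thin lines are the 3 organoid lines, the black line is their mean and the grey band is the mean ± SD. The band is wide in Met2, Met3 and Primary2, where the lines stand at different heights, and narrower in Met1 outside window 2 and in Primary3 outside windows 2 and 9. Window 2 dips in both primary groups.

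Window 2, which spans 10 to 20 Mb, was the window with the largest difference between metastasis and primary lines. Its 84 tested regions had medians of 0.97, 0.15 and 0.29 in Met2, 0.48, 0.12 and 0.47 in Met3, -0.24, -0.23 and -0.69 in Primary2, and -0.47, -0.72 and -0.11 in Primary3. All 6 metastasis lines of these rounds were above 0 and all 6 primary lines below, with no overlap. The Met1 lines stood at 0.13, -0.24 and -0.33, on both sides. The difference between metastasis and primary lines was 0.83, and it was 0.61 after each line's own chromosome 5 median was taken off. With that median removed, the metastasis lines ran from 0.11 to 0.36 and the primary lines from -0.60 to -0.03. Both the size and the separation rested on weak regions as well. Over the 23 strong regions of the window the difference was 0.31, and 0.10 with the line medians removed, and the groups overlapped, with Met2 replicate 2 at -0.09, Primary2 replicate 1 at 0.13 and Primary3 replicate 3 at 0.04. Over strong regions the largest difference was in window 9 (0.59). Of the 236 windows of the other autosomes, 3 had a difference as large as 0.83 in size, and 3 one as large as 0.61 with their own chromosome's medians removed.

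All 16 windows of chromosome 5 had a higher mean in metastasis than in primary lines of rounds 2 and 3, with differences from 0.01 in window 16 to 0.83. On the other autosomes 53.4% of windows did, and chromosomes 6 and 13 also had every window higher. Without Met2 replicate 1, 13 of the 16 were higher, and windows 4 (-0.01), 6 (-0.01) and 16 (-0.10) were lower. Window 9 followed window 2 with 0.49, and 0.28 with the line medians removed, where Met3 replicate 3 (0.37) was the highest line. Window 16 was the reverse, with -0.21 after the medians were removed. In that window the Met3 lines stood at -0.34, -0.29 and -0.16 and the Primary3 lines at 0.14, 0.06 and 0.20, without overlap, while the Met2 and Primary2 lines overlapped. Over the 27 strong regions of window 16 the difference after removal was -0.03, and Met3, at -0.20, -0.04 and 0.05, was no longer separate from Primary3, at 0.16, 0.03 and 0.11. In windows of 5 Mb, 30 of 31 were higher in metastasis lines. The largest difference among them, 1.98 at 55 to 60 Mb, rested on 5 tested regions.

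Single regions were tested next, to find which sites differed between metastasis and primary lines beyond the spread among lines, which is all that the p-values measure. In rounds 2 and 3 together, 485 of 2531 chromosome 5 regions (19.2%) were called at an edgeR adjusted p under 0.05, beside 20.2% of all 39952 tested regions. Of them 392 were higher in metastasis lines, which is 15.5% of tested chromosome 5 regions beside 11.2% of all, and 93 were lower, 3.67% beside 8.98%. The number of changed regions was therefore close to the background, and their direction was not. Higher regions made up 80.8% of the calls on chromosome 5 and 55.6% of all calls, and no other autosome had a larger share. On the other autosomes the share ran from 17.5% (chromosome 18) to 77.0% (chromosome 1). It was 73.7%, 72.9% and 71.7% on chromosomes 13, 6 and 10. A lean to higher regions was thus not particular to chromosome 5. The median log2 fold change over all tested chromosome 5 regions was 0.26, beside 0.04 over the whole table. It was larger on chromosomes 1 (0.30) and 13 (0.28).

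Taking off each library's chromosome medians, which by construction makes the directions more even, left 445 chromosome 5 regions called, 265 higher and 180 lower (59.6% higher), and 358 of them were among the 485. Without Met2 replicate 1, 500 were called, 337 higher and 163 lower (67.4% higher), and the median log2 fold change was 0.13. Of the 392 higher regions 89 changed at least 4-fold, and of the 93 lower regions 15 did. For these settings and for the 4-fold changes no share of all tested regions is given here, so they are not set against the background. Window 2 held 31 higher regions among 84 tested (36.9%) and window 9 held 18 among 71 (25.4%), and the share in the other windows was 8.20% to 21.5%. Lower regions made up 0% (window 12) to 6.56% (window 16) of the tested regions of a window.

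**Figure D4:**
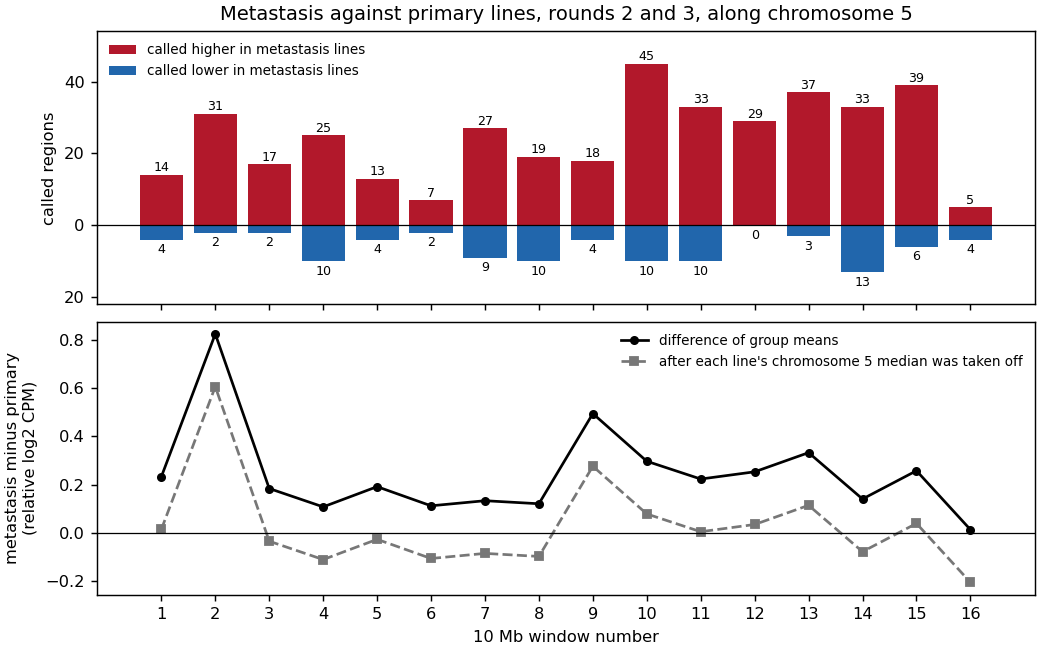
Top, the number of chromosome 5 regions called higher (upward bars) or lower (downward bars) in metastasis than in primary lines of rounds 2 and 3, per window of 10 Mb (x axis, window number). Bottom, the difference of metastasis and primary means of the window medians (relative log2 CPM), as measured (solid) and after each line's chromosome 5 median was taken off (dashed). The solid line is above 0 throughout with 0.83 in window 2 and 0.49 in window 9. The dashed line is furthest from 0 in windows 2, 9 and 16. In the other windows it runs from -0.11 (window 4) to 0.11 (window 13).

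Regions are named from here on by size of change, among called regions with at least the median signal of all tested regions and with every metastasis line on the same side of every primary line of its round. At regions named by this rule, the separation of lines within a round thus follows from the choice. The largest increase was at peak_74058 (82033720 to 82034319, 599 bp). It held 11.95, 15.2 and 59.4 CPM in the Met2 lines and 74.7, 37.0 and 38.2 in the Met3 lines. The primary lines held 1.74, 0.547 and 0.807 CPM in round 2 and 3.15, 0 and 2.58 in round 3, and the Met1 lines held 0, 0.634 and 2.09. The 6 later metastasis lines were thus all above the 9 other lines, and the region was near 0 in Met1. The fitted log2 fold change was 4.46 ± 0.50 (standard error, SE, with edgeR adjusted p = 2.02e-06). Against Met1 it was 4.54 ± 0.71 in Met2 (edgeR adjusted p = 0.000765) and 5.35 ± 0.71 in Met3 (7.42e-05). These sizes depend on single lines, since so few reads lie in the low groups. Without Met2 replicate 3 the round 2 value of 4.70 was 3.65 and the Met2 against Met1 value was 3.49, and without Primary2 replicate 1 the former was 5.33. Without Met1 replicate 3 the values against Met1 were 5.73 in Met2 and 6.53 in Met3. In a fit of only the Met2 and Met1 groups the first missed the threshold (4.58, edgeR adjusted p = 0.0653).

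The second was peak_73652 (73047502 to 73048183), with 43.8, 42.1 and 59.4 CPM in Met2 and 84.4, 31.7 and 49.9 in Met3. Primary2 held 6.37, 2.19 and 6.45 CPM and Primary3 5.59, 6.37 and 1.55. Met1, at 2.26, 13.3 and 13.4, lay below all later metastasis lines. The log2 fold change was 3.62 ± 0.40 (edgeR adjusted p = 1.51e-06). Its round 3 value of 3.95 was 4.71 without Primary3 replicate 1 and 3.25 without Primary3 replicate 3. Lower in size but more even was peak_79181 (145063916 to 145064427), with 25.2, 51.6 and 60.8 CPM in Met2, 77.8, 60.7 and 51.8 in Met3, and 0 to 9.44 in the 6 primary lines. Its log2 fold change was 2.90 ± 0.30 (edgeR adjusted p = 8.83e-07), and it was also higher than in Met1 (10.7 to 16.8 CPM) in both Met2 and Met3.

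Other regions with large increases differed in where the Met1 lines stood. At peak_70717 (5283685 to 5284364, log2 fold change 3.24), peak_74071 (82598820 to 82599490, 3.14), peak_70968 (15860922 to 15862093, 3.08) and peak_74736 (96543935 to 96544671, 2.68), no difference between Met1 and Met2 or Met3 passed the threshold. At peak_70968 the Met1 lines held 23.8, 35.2 and 41.8 CPM and the Met2 lines 65.1, 30.0 and 14.7, whereas the primary lines held 0 to 6.36. Its round 2 value of 3.48 was 2.80 without Met2 replicate 1 and 4.45 without Primary2 replicate 2, and that of peak_74071 (3.38) was 2.58 without Met2 replicate 1. At peak_70699 (4703517 to 4704179, 3.34), peak_74103 (86675771 to 86676066, 2.85) and peak_70696 (4617338 to 4618696, 2.68), by contrast, Met2 and Met3 were also higher than Met1. The edgeR adjusted p against Met1 at these 3 regions was 0.0104 to 0.0474 in Met2 and 0.000232 to 0.0192 in Met3. The regions lay at both ends and in the middle of the chromosome. Of the 10 largest increases, 3 fell in window 9 (peak_74058, peak_74071 and peak_74103) and 3 in window 1 (peak_70699, peak_70717 and peak_70696).

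The largest decrease was at peak_74007 (77813000 to 77814422, 1422 bp). The Met2 lines held 7.31, 3.59 and 4.19 CPM and the Met3 lines 4.25, 1.91 and 1.94. The Primary2 lines held 41.1, 78.8 and 55.7 CPM and the Primary3 lines 67.8, 12.7 and 76.5, where 12.7 comes from the shallowest library with 4 reads. All 6 metastasis lines were below all 6 primary lines, and the Met1 lines, at 24.9, 20.3 and 31.9, stood above these 6 metastasis lines and below all primary lines except Primary3 replicate 2. The log2 fold change was -4.00 ± 0.35 (edgeR adjusted p = 2.06e-07), and the region was also lower in Met2 (-2.38 ± 0.49) and Met3 (-3.27 ± 0.53) than in Met1. The Met2 against Met1 call was lost in a fit of those groups alone (edgeR adjusted p = 0.0837).

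At peak_73574 (67691154 to 67691939) Met2 replicate 1 departed from its group, with 39.8 CPM beside 3.59 and 2.80 in the other Met2 lines and 2.43 to 5.18 in Met3. The primary lines held 54.9 to 111 CPM. The log2 fold change was -3.31 ± 0.55 (edgeR adjusted p = 0.000348) and -4.40 without Met2 replicate 1. At peak_78368 (137787152 to 137787717) the later metastasis lines held 2.66 to 9.06 CPM and the primary lines 22.3 to 58.5, with -3.20 ± 0.42 for the log2 fold change (edgeR adjusted p = 1.64e-05). The Met1 lines there were split, with 4.53 and 2.54 CPM in replicates 1 and 2 and 25.7 in replicate 3. The same Met1 replicate 3 was the high one at peak_74939 (100614155 to 100615505, log2 fold change -2.60), with 47.1 CPM beside 9.06 and 10.2.

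Smaller decreases were found at peak_72828 (44201511 to 44202213, log2 fold change -2.47), peak_70986 (16802337 to 16803734, -2.06), peak_71381 (24662697 to 24664022), peak_73351 (65268642 to 65270864, -1.66), peak_72829 (44206939 to 44207589, -1.66) and peak_79407 (147472596 to 147473271, -1.58). peak_72828 and peak_72829 are neighbours on the chromosome. At peak_72828, where Met2 replicate 3 had no reads, the round 2 value of -2.90 was -3.74 without Met2 replicate 2. At peak_73351, a wide region of 2222 bp, the metastasis lines of both rounds held 14.8 to 30.4 CPM and the primary lines 49.2 to 87.4, and the Met1 lines (at most 32.2) were also below all primary lines. Neither Met2 nor Met3 differed from Met1 past the threshold at these 6 regions.

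**Figure D5:**
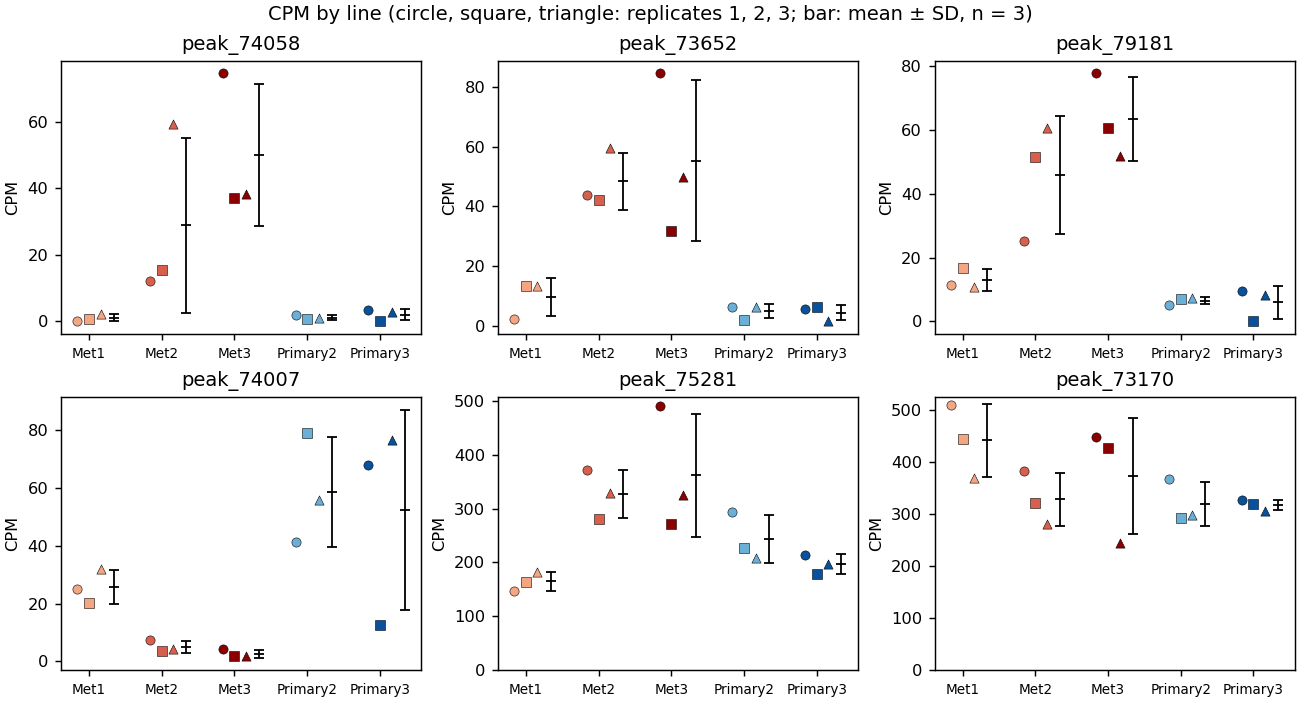
CPM (y axis, linear, starting at 0) in the 15 lines by group (x axis) for 6 chromosome 5 regions. Points are lines (circle, square and triangle for replicates 1, 2 and 3) and bars are the mean ± SD of 3 lines. peak_74058, peak_73652 and peak_79181 are higher in every Met2 and Met3 line than in the other 9 lines, peak_74007 is lower in every Met2 and Met3 line than in the other 9 lines, and peak_75281 and peak_73170 are strong in every line.

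Within single rounds, higher regions again outnumbered lower ones. They made up 82.4% of the chromosome 5 calls in round 2, beside 81.0% on chromosome 6. In round 3 they made up 78.6%, and chromosome 1 had a larger share (78.9%). Met2 differed from Primary2 at 142 chromosome 5 regions (5.61%, beside 6.21% of all tested). Of these 117 were higher (4.62%, beside 3.44%) and 25 lower (0.988%, beside 2.77%). Leaving out a Primary2 line lowered the count to 61 (replicate 1), 54 (replicate 2) or 53 (replicate 3), and without Met2 replicate 1 it was 131, of which 76 were higher and 55 lower. The lower calls were 14 without Met2 replicate 2 and 12 without Met2 replicate 3. Met3 differed from Primary3 at 243 regions (9.60%, beside 10.2% of all tested). Of these 191 were higher (7.55%, beside 5.64%) and 52 lower (2.05%, beside 4.52%). That count was 95 without Met3 replicate 1, 158 without Met3 replicate 3, 74 without Primary3 replicate 1 and 122 without Primary3 replicate 3. The largest increase in round 3 was at peak_76673 (119651087 to 119651943), with 58.9, 21.4 and 29.8 CPM in Met3 and 0, 6.37 and 2.24 in Primary3 (log2 fold change 4.42 ± 0.86, edgeR adjusted p = 0.0025). It was 3.68 without Primary3 replicate 1 and 5.45 without Primary3 replicate 3. In round 2 the difference at this region did not pass the threshold (1.41 ± 0.69, edgeR adjusted p = 0.246).

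Whether the metastasis effect differed between the rounds was tested region by region. No chromosome 5 region was called (edgeR, 0 of 2531 and 0% of all tested), and DESeq2 called 0. An unadjusted p under 0.05 was found at 174 (6.87%), beside 6.43% of all tested regions. Met3 against Met2 gave 0 calls as well, with 215 at an unadjusted p under 0.05 (8.49%, beside 7.32% of all tested) and 1 call by DESeq2, and edgeR called 6 without Met2 replicate 2 and 5 without Met2 replicate 3. Primary3 against Primary2 gave 0 calls, with 181 at an unadjusted p under 0.05 (7.15%, beside 6.62%) and 1 by DESeq2, and edgeR called 3 without Primary2 replicate 3. For both comparisons 0% of all tested regions were called.

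Later metastasis lines were then set against the first-round lines. Both comparisons share the 3 Met1 lines, and the Met2 and Met3 lines are also those compared with the primary groups above. Met2 differed from Met1 at 162 chromosome 5 regions, 157 higher and 5 lower. These are 6.40% of tested chromosome 5 regions, beside 3.55% of all tested regions, the highest share of the 19 autosomes. The higher ones alone are 6.20% beside 2.64% and the lower ones 0.198% beside 0.909%. Higher regions made up 96.9% of these calls and 74.4% of all calls. With each library's chromosome medians taken off 86 regions were called, 59 higher and 27 lower, with no share of all tested regions set beside them. The count was 60 without Met1 replicate 2, 62 without Met1 replicate 3 and 84 without Met2 replicate 3. It was 175 (156 higher and 19 lower) without Met2 replicate 1, the line with the highest chromosome 5 median. In a fit of Met1 and Met2 alone 11 regions were called.

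After peak_74058, the largest increases over Met1 in Met2 were at peak_71496 (28011607 to 28012379, log2 fold change 3.13 ± 0.64, edgeR adjusted p = 0.00833) and peak_72733 (39128988 to 39129512, 2.95 ± 0.82, 0.0481). The Met2 lines at peak_71496 were far apart, with 7.97, 38.6 and 86.7 CPM beside 7.93, 4.76 and 3.88 in Met1, and the primary lines held 6.02 to 51.0. That call was lost without Met1 replicate 2 (edgeR adjusted p = 0.0546) or 3 (0.0688) and without Met2 replicate 3 (0.0539), and the one at peak_72733 without any of 11 of the 15 lines. Only 3 regions met the naming rule among decreases. They were peak_73281 (64735220 to 64737165), which held 70.2, 169 and 109 CPM in Met1 and 18.6, 33.2 and 13.3 in Met2 (log2 fold change -2.40 ± 0.37, edgeR adjusted p = 0.000711), peak_74007, and peak_71884 (32015546 to 32016538, -1.77 ± 0.46). The call at peak_71884 (edgeR adjusted p = 0.03) was lost without Met1 replicate 2 (0.143) or 3 (0.127) and without Met2 replicate 1 (0.0521) or 3 (0.111).

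Met3 differed from Met1 at 283 chromosome 5 regions (11.2%, beside 9.54% of all tested). Of these 251 were higher (9.92%, beside 5.98%) and 32 lower (1.26%, beside 3.56%). Higher regions made up 88.7% of these calls, the largest share among the autosomes, and 62.7% of all calls. The share was 85.4% on chromosome 17 and 76.7% on chromosome 19, so this lean was not particular to chromosome 5. With chromosome medians taken off 248 were called, 165 higher and 83 lower, again with no share of all tested regions beside them. The count was 164 without Met1 replicate 2, 165 without Met1 replicate 3 and 137 without Met3 replicate 1. After peak_74058, the largest increase was at peak_78278 (137154528 to 137155263), where Met1 stood apart from every other group. The Met1 lines held 9.06, 2.22 and 4.48 CPM and the Met3 lines 97.8, 62.6 and 82.2, while Met2 held 14.6, 38.6 and 47.5 and the primary lines 35.5 to 55.9. The log2 fold change was 4.19 ± 0.44 against Met1 (edgeR adjusted p = 9.27e-06) and 0.76 ± 0.35 against Primary3 (0.181). The largest decrease was at peak_76720 (120120190 to 120121284), from 61.1, 143 and 129 CPM in Met1 to 10.9, 12.2 and 7.77 in Met3 (-3.43 ± 0.81, edgeR adjusted p = 0.0115). That call was lost without Met3 replicate 1 (edgeR adjusted p = 0.0514). In Met2 the lines at peak_76720 were split, with 234 CPM in replicate 1, 32.3 in replicate 2 and 25.2 in replicate 3. The Primary2 lines were split as well (72.4, 103 and 13.7 CPM). The Primary3 lines were as low as Met3, with 2.10, 12.7 and 18.9 CPM. Met3 did not differ from Primary3 there (log2 fold change -0.13 ± 0.89, edgeR adjusted p = 0.952). At peak_73281 Met3, with at most 21.7 CPM, was also lower than Met1 (-2.79 ± 0.38, edgeR adjusted p = 9.32e-05).

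Some called regions had neighbours called in the same direction. In rounds 2 and 3 together, 98 of the 485 lay in 27 runs of at least 3 consecutive tested regions, 24 runs higher and 3 lower. That is 20.2% of the calls, and 9 of the other autosomes had a larger share, so such runs were not particular to chromosome 5. The runs below were chosen after their values were seen. In window 2, 5 regions from peak_70953 to peak_70961 (15225399 to 15563090) had log2 fold changes of 2.88 to 4.86. The largest was peak_70954 (15239796 to 15240378), with 42.5, 16.1 and 13.98 CPM in Met2, 40.1, 21.0 and 20.1 in Met3 and at most 1.61 in the primary lines (4.86 ± 0.64, edgeR adjusted p = 1.58e-05). It lies under the median signal and so outside the naming rule. In the sparsely covered stretch at 55 to 60 Mb, peak_73158, peak_73159 and peak_73160 (58126025 to 58335103) were higher by 2.61 to 3.61. peak_73160 held 11.95, 21.5 and 59.4 CPM in Met2 and 37.1, 27.5 and 35.6 in Met3, beside 0 to 8.07 in the primary lines and at most 3.397 in Met1.

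The longest run held 8 regions from peak_76825 to peak_76840 (120964056 to 121033926), with modest log2 fold changes of 0.51 to 1.89. Its widest member, peak_76838 (121026705 to 121029882, 3177 bp), held 128, 113 and 173 CPM in Met2 and 179, 90.8 and 113 in Met3. The primary lines held 31.9 to 59.6 CPM and the Met1 lines 37.1 to 49.8, so the 6 later metastasis lines were above the other 9. Its log2 fold change was 1.61 ± 0.19 (edgeR adjusted p = 3.08e-06). The run of 3 lower regions at 77801895 to 77814422 ended in peak_74007. The others, peak_74005 and peak_74006, had log2 fold changes of -2.24 and -1.62, and neither Met2 nor Met3 passed the threshold against Met1 there.

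At most of the strongest regions of the chromosome, the lines with the highest chromosome 5 medians were also the highest. By mean CPM over the 15 lines the first was peak_73170 (60434012 to 60434387), a narrow region of 375 bp that also carried the highest score given by the authors, 5096.93, where the highest on the other autosomes was 1094.96. It held 509, 445 and 370 CPM in Met1, 383, 322 and 281 in Met2, 448, 427 and 245 in Met3, and 292 to 368 in the primary lines. Met2 replicate 1 was not raised there, and no comparison passed the threshold. The next were peak_73755 (73957181 to 73959248), peak_78413 (138069704 to 138072127), peak_71269 (23897839 to 23900738) and peak_75281 (106108424 to 106110566). At each of these 4 the highest pair of lines was Met2 replicate 1 and Met3 replicate 1, with 564 and 522 CPM at peak_73755 and 371 and 490 at peak_75281. Of the 5, only peak_75281 was called in rounds 2 and 3 together (log2 fold change 0.65 ± 0.15, edgeR adjusted p = 0.0027). The regions next by score were peak_78061 (135624791 to 135625704) and peak_77988 (135164451 to 135165185). peak_78061 held 378, 209 and 329 CPM in Met2, 301, 240 and 211 in Met3 and 129 to 200 in the primary lines (0.67 ± 0.15, edgeR adjusted p = 0.00271).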

How the data were processed

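Whole-number counts per region and library were deposited by the authors in a single table of 43020 regions shared by the 15 libraries. Per the labels' protocols, dissociated organoid cells were treated with TDE1 transposase and read from both ends. Named in the submitters' processing notes are MACS2, bedtools, Bowtie, SAMtools, Picard and the build mm9, with no versions. Read shifting, duplicate removal and the scale of the score in the region names are not given in the sources used here. Groups and replicate numbers came from the sample titles.

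Counts of the whole table were tested with edgeR 4.0.16 (R 4.3.3, limma 3.58.1). filterByExpr (minimum count 10, minimum total 15) kept 39952 regions, TMM scaled the libraries, and a robust quasi-likelihood fit with 5 group means used all 15. Calls needed a Benjamini-Hochberg adjusted p under 0.05 over all tested regions. SEs were derived from each fold change and its F statistic. Mean signal is edgeR's average log2 CPM, and relative values used log2 CPM with a prior count of 2. A region belongs to the 10 Mb window that holds its midpoint. The rounds together are the mean of both rounds' differences, so each round shares its lines with that comparison. Regions were named by the 10 largest changes a direction in rounds 2 and 3 together, 3 a direction in each of 4 other comparisons, the 5 highest mean CPM and the 3 highest scores. Chromosome, tests and rules were chosen with earlier results of these data known. Library totals, 285633 to 5916109, set the precision, and reads without molecular identifiers are not independent molecules, so the limit of 3 counts for a 0 covers counting error only.

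Alternatives were DESeq2 1.42.0, other scalings and filters, chromosome medians removed, the replicate number as a block, fewer libraries and other windows. The code was tested on simulated data. Genes, promoters and sequences were not used here, because the gene tables at hand are of another build. Other software was Python 3.11.15, numpy 2.4.6, pandas 2.3.3 and matplotlib 3.10.9.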

Additional observations from a re-analysis of the deposited data

Results flagged for a closer look

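In each of 36 sets of lines (the 9 metastasis or the 6 primary lines, for the whole chromosome, for its distal less its proximal part, and for each window), the highest and the lowest line were set against the rest by Dixon's gap ratio. The ratio passes its limit in about 1 in 20 sets by chance. Since the chromosome was chosen for its spread among lines, and the windows of a line share its level, the 5 sets past the limit are given as a description and not against a chance count. The distal less the proximal part of chromosome 5 was 0.25 on the log2 scale in Met2 replicate 3, far above the other 8 metastasis lines (-0.03 ± 0.04, SD). Met2 replicate 1 stood at 0.69 in window 6, above the other 8 (-0.08 ± 0.16). Primary2 replicate 1 stood apart from the other 5 primary lines in 3 windows. It was at 0.29 in window 4 (others -0.08 ± 0.08), at 0.31 in window 7 (others -0.07 ± 0.06) and at 0.30 in window 11 (others -0.13 ± 0.09). The windows share the level of the whole chromosome in a line, so these 3 sets are not separate events. For the chromosome as a whole no line was far enough from its neighbours to be singled out, since the values of the lines filled the range between the ends. No window had the metastasis lines of one round all moved one way and those of the other round all the opposite way.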

How the results depend on the processing

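The chromosome 5 difference between metastasis and primary lines stayed between 0.20 and 0.24 under 10 other settings and between 0.12 and 0.31 when a line was left out, and the number of regions called in rounds 2 and 3 together ran from 344 to 519 when a line was left out. Regions with at least 10 counts in at least 12 libraries, which are fewer, gave 300 calls in rounds 2 and 3 together, 82 for Met2 against Primary2 and 136 for Met3 against Primary3. A fit of only the groups compared gave 48 for Met2 against Primary2, 372 for Met3 against Primary3, 4 for Primary3 against Primary2 and 11 for Met2 against Met1, and the cause was not tested. Removing chromosome medians gave 86 for Met2 against Met1, and DESeq2 called 1 region each for Met3 against Met2 and Primary3 against Primary2. With a line left out the counts ran from 53 to 186 (Met2 against Primary2), 74 to 319 (Met3 against Primary3), 60 to 215 (Met2 against Met1), 137 to 378 (Met3 against Met1), 0 to 6 (Met3 against Met2) and 0 to 3 (Primary3 against Primary2). For counts under other settings or with a line left out, here and above, no share of all tested regions is given. Whether they moved more on chromosome 5 than elsewhere is therefore not shown.

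Over all tested regions, lines with the same replicate number were no more alike than others. Deviations from the group means correlated at -0.21 to 0.16 (median -0.03) over 30 pairs of lines with the same number and at -0.17 to 0.19 over 60 other pairs. This cannot settle whether such lines share an animal or lineage, which the labels do not give. On chromosome 5, replicate 1 had the highest median in Met1, Met2, Met3 and Primary2 and the lowest in Primary3. With the replicate number as a block, 463 regions were called in rounds 2 and 3 together, 109 for Met2 against Primary2, 201 for Met3 against Primary3, 122 for Met2 against Met1 and 245 for Met3 against Met1. No share of all tested regions is set beside these counts either. For the chromosome, same-numbered lines differed by 0.40, -0.07 and 0.33 for numbers 1, 2 and 3, so number 2 went the other way, and their mean equals the unpaired difference by arithmetic. Of 431 values of named regions under other settings 415 kept their side of the threshold, and of 765 with a line left out 738 did. No value called in the main fit changed direction, and the direction of the others was not checked. Depth limits single regions in Primary3 replicate 2 and Met1 replicate 1. The medians of Met1 replicate 1 (-0.45 strong, 0.39 weak) and Primary3 replicate 1 (0.01 strong, -0.46 weak) changed sign between strong and weak regions, so their level as a whole is uncertain. Leaving out each line in the count of windows, an alternative chosen after seeing the data, gave 13 (without Met2 replicate 1) to 16 of the 16 windows higher in metastasis lines.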
